A study of Mus musculus with 30 samples.

Results

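The genes described here build, take up, store and export cholesterol in the liver, or set how strongly cholesterol is made. They were picked by gene name for their place in the pathway, with earlier results of these data known: 34 genes, of 14259 in the tables for postnatal days (PND) 1 and 21 and 13091 in the table for PND42, and each of the 34 was present and tested at every age. Liver RNA came from CD-1 mice, an outbred stock. The exposed mice had been exposed before birth to cadmium chloride at 500 ppb, and the controls had not. All groups carried the same strain background, and no transgene or deleted gene is named in the labels. Females were taken at PND1 (4 control, 4 exposed), PND21 (3 and 3) and PND42 (4 and 4), and males at PND42 (4 and 4). The labels do not say whether animals of different groups shared a litter, so p-values measure only the spread between these animals. Animal tags in the labels begin with a number and letter whose meaning is not stated. Among the females 6 of these tag stems each occur at 2 ages (12 of 22 libraries), 3 of them at PND1 and PND21 (6 of 14 libraries), and 0 occur more than once within a group. In these counts a PND42 control female that could not be tied to a numbered animal was taken as sharing no stem. The tag in its column name has the stem of a PND1 control and a PND21 control. The labels do not give how the dams took in the cadmium.

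Hepatocytes make cholesterol from acetyl-CoA through mevalonate, farnesyl diphosphate, squalene and lanosterol. Transcription of nearly the whole route, and of genes for uptake, is raised by SREBP2 (sterol regulatory element binding protein, encoded by Srebf2). SREBP2 is held in the endoplasmic reticulum by Insig proteins when sterol is plentiful, and is carried to the Golgi by its escort protein Scap when sterol is scarce. When sterol accumulates, the receptor LXRα (encoded by Nr1h3) raises the genes of efflux and biliary excretion instead. The members were read in 4 sets: 8 enzymes from acetyl-CoA to the isoprenoid diphosphates, 11 enzymes from squalene to cholesterol, 4 genes of SREBP2 control, and 11 genes of uptake, transport, efflux and storage.

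Promoter sequence is printed for 6 members, Hmgcs1 and Mvk for their motif matches and the others for their expression values. No link between motif matches and expression differences was tested. In the sequences 2 motifs tied to SREBP2-driven transcription can be seen. They are TCACNCCAC, a core form of the sterol regulatory element, and CCAAT, which NF-Y binds; both were searched on both strands, from 250 bases before to 50 after each RefSeq gene start (GRCm38.p6). Of the 34 members, 27 had an entry. TCACNCCAC was found in 1 of the 27 (Hmgcs1) and in 1.44% of all 27025 genes in that table. CCAAT was found in 23 of the 27, with Abca1, Acat2, Nr1h3 and Scap lacking it, against 41.1% of all genes. The 6 sequences read 5′ to 3′ toward the gene and end just before the RefSeq start, except that of Hsd17b7, whose last base is at position -37 from it. Capitals mark a match on either strand, a reverse-strand CCAAT reading as ATTGG, and no marked matches overlap. Pmvk was the only member past the test at PND21, Hmgcs1 carries the only sterol element match, Mvk carries the most CCAAT matches printed (5), and Hsd17b7, Ebp and Insig2 were lower in exposed females at PND42. In order they lie at chr3:89454361-89454540 (plus strand), chr13:119690171-119690350 (plus strand), chr5:114444089-114444268 (plus strand), chr1:169969242-169969385 (minus strand), chrX:8193513-8193692 (minus strand) and chr1:121332590-121332769 (minus strand).
Pmvk: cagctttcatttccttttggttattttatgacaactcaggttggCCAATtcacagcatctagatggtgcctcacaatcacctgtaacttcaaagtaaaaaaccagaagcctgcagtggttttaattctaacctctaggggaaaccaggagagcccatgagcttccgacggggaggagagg
Hmgcs1: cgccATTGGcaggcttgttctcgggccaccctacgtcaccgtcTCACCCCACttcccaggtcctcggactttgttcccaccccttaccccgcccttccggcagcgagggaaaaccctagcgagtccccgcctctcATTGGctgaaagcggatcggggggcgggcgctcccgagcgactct
Mvk: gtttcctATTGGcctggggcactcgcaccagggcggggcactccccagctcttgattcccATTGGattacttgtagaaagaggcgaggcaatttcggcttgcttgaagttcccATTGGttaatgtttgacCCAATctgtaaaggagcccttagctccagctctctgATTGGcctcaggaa
Hsd17b7: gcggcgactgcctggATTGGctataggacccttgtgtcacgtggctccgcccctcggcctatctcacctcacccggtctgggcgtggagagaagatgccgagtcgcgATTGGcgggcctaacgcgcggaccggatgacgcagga
Ebp: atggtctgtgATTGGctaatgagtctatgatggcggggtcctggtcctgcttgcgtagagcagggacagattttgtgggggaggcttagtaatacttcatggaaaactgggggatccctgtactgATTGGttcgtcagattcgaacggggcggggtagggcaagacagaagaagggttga
Insig2: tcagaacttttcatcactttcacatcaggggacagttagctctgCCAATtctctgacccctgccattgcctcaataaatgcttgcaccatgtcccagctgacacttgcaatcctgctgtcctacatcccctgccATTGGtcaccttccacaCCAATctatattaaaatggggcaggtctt

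Values are normalised read counts, that is reads divided by the authors' library size factor, and are listed from lowest to highest within a group. Differences are log2 fold changes ± SE of exposed over control. A gene was called changed where limma, fitted to the deposited log2 values, gave an adjusted p below 0.05, with the adjustment made across every gene in the fit. Reads per library ran from 22027514 to 40088312, and at PND21 every exposed library (24800467 to 28260376) was deeper than every control library (22027514 to 24589311). PND42 libraries were scaled apart from the others, so levels are not compared between PND42 and the earlier ages. Of the PND42 control columns, 1 female and 3 male could be tied to a group and not to a numbered animal, and the name of that female column carries the tag the labels give to a PND21 control. With numbered females only, 3 members were higher and 14 lower at PND42, as with all of them (share of all genes in that fit not given here). The hepatocyte markers Alb, Ttr, Apoa1, Apoh and Fgb were present in every library, with summed normalised counts of at least 1048 kilocounts (1 kilocount is 1000 normalised counts). Livers were sequenced whole, so fewer cells of a type and less RNA per cell cannot be told apart.

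In newborn females, 28 of the 34 members had a lower mean in exposed livers and 6 a higher one, and none passed the test. The median log2 fold change was -0.30, against -0.01 over all 14059 genes tested, of which 50.8% had a lower mean. All 11 enzymes from squalene to cholesterol had a lower mean (median -0.45), as did 6 of the 8 earlier enzymes (median -0.18). limma called 0 members and 0% of all genes, voom on the recovered reads likewise called 0 members, and at an unadjusted p under 0.05 there were 7 members lower and 0 higher, where 8.36% of all genes were lower and 6.14% higher. No member separated the groups completely, which 4.82% of all genes did downward and 2.94% upward.

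Of the enzymes, Hsd17b7, the ketosteroid reductase of the late pathway (chr1:169949535-169969241), had the lowest p. It gave 637, 839, 923 and 1102 in controls and 431, 481, 508 and 677 in exposed females. Only the highest exposed library reached above the lowest control, and the log2 fold change was -0.73 ± 0.19 (limma adjusted p = 0.244). The authors' deposited table gives Hsd17b7 an adjusted p of 0.027, the only value under 0.05 among the 29 members for which it lists one. Over all genes it has 72 of 6790 under 0.05 at PND1. Ebp, the sterol isomerase (chrX:8185329-8193512), gave 1312, 1751, 1907 and 2143 in controls and 1151, 1178, 1202 and 1329 in exposed females. Its highest exposed value passed the lowest control only narrowly (-0.53 ± 0.15, adjusted p = 0.253). Idi1, which isomerises isopentenyl diphosphate (chr13:8885501-8892451), had low counts of 58.4, 68.0, 131 and 134 in controls and 26.3, 27.9, 30.5 and 104 in exposed females. The lower 3 exposed values lay beneath all controls while the fourth lay among them (-1.20 ± 0.46, adjusted p = 0.306). Pmvk, phosphomevalonate kinase, gave 446, 490.2, 490.3 and 514 in controls and 403, 432, 438 and 745 in exposed females, so that the exposed libraries lay on both sides of the controls (0.01 ± 0.18, adjusted p = 0.987).

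Among the control genes, Srebf2 itself (chr15:82147181-82205379) gave 1184, 1389, 1455 and 1677 in controls and 1168, 1168, 1246 and 1343 in exposed females. The ranges overlapped, with a log2 fold change of -0.20 ± 0.13 (limma adjusted p = 0.466). Insig2, which holds SREBP2 in the endoplasmic reticulum (chr1:121304353-121332589), gave 1109, 1182, 1384 and 1559.5 in controls and 853, 959, 1084 and 1156 in exposed females, with the highest exposed value just above the lowest control (-0.37 ± 0.14, adjusted p = 0.31). Its relative Insig1 (chr5:28071363-28078662) was more scattered, at 620.3, 1044, 1288 and 1716 in controls and 525, 719, 1183 and 1301 in exposed females. The Insig1 ranges overlapped almost fully (-0.32 ± 0.36, adjusted p = 0.693). Stard4, a cytosolic sterol carrier, gave 1861, 2236, 2879.8 and 3061 in controls and 1467, 1675, 1804 and 2164 in exposed females, again with overlap at the top of the exposed group (-0.48 ± 0.18, adjusted p = 0.299). Abca1, the exporter that loads cholesterol onto apolipoprotein A-I (chr4:53030787-53159895), gave 2589, 3102, 3274 and 3288 in controls and 2268, 2785, 2982 and 3652 in exposed females, with no separation (-0.08 ± 0.16, adjusted p = 0.836). The other members ran from -0.55 for Sqle to 0.27 for Soat2.

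A single exposed newborn stood apart from the other 3 across the synthesis route. The mean of the 19 enzymes on the log2 scale was 8.94, 9.003, 9.10 and 9.90 in the exposed females and 9.14, 9.58, 9.79 and 9.90 in the controls. The exposed female at 9.90, replicate 3, had the highest value of its group in 18 of the 19 enzymes, the exception being Ggps1, where it had the lowest. Without it the members' median log2 fold change was -0.44 and 0 members were called. The median was -0.17 without exposed replicate 1 and also -0.17 without control replicate 4. Control replicate 1, at 9.14, had the lowest control value in 12 of the 19. Without it 10 members rather than 6 had a higher mean in exposed livers. The members that turned were the transport genes Abcg5, Abcg8, Npc1 and Scarb1, and none was an enzyme. Summed hepatocyte markers, in kilocounts, were 1205 to 2061 in controls and 1048 to 1485 in exposed newborns, and 4 of the 5 had a lower mean. All 12 erythroid markers had a higher mean in exposed newborns (median log2 fold change 0.36), with sums of 236 to 388 and 249 to 548 kilocounts. Of these 12, 0 had an unadjusted limma p under 0.05. Sinusoidal endothelium markers had a higher mean in 4 of 5 (median 0.25). Of these 5, 2 were higher at an unadjusted limma p under 0.05 (6.14% of all genes) and 2 separated upward (2.94% of all genes). With the mean of these erythroid genes as a covariate the members' median was -0.13.

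**Figure D1:**
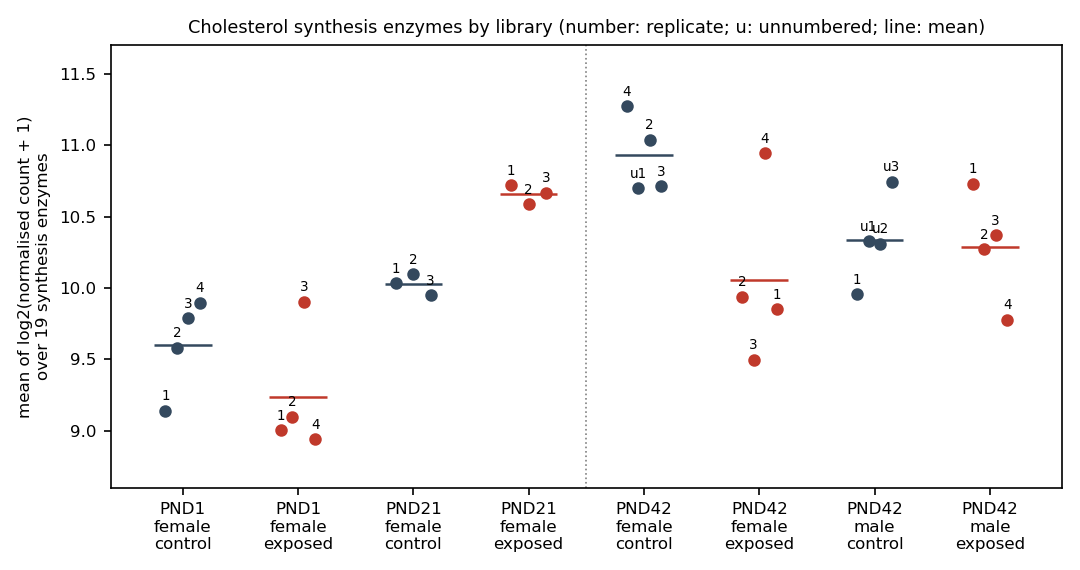
Mean log2(normalised count + 1) of the 19 cholesterol synthesis enzymes in each of the 30 libraries, by age, sex and exposure (blue, control; red, exposed; line, group mean). PND1 exposed replicate 3 (9.90) and PND42 exposed female replicate 4 (10.94) lie above the rest of their groups, while the 3 exposed PND21 libraries (10.59 to 10.72) all lie above their controls (9.95 to 10.10). The dotted line marks that PND42 was scaled separately.

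At PND21 the synthesis enzymes lay the other way. A higher mean in exposed females was found for 16 of the 19 enzymes and 24 of the 34 members, against 48.9% of all 13886 genes tested, and the members' median log2 fold change was 0.30 against -0.01 over all genes. Pmvk alone passed the test, among 4 higher genes in all (0.0288%) and 1 lower (0.0072%). The groups separated completely upward for 11 members, 9 of them enzymes, and downward for 1, Abca1, where 7.99% and 8.62% of all genes did so. At an unadjusted p under 0.05, 10 members were higher and 0 lower (5.09% and 4.48% of all genes). The enzymes up to the isoprenoids had a median of 0.81, those from squalene 0.38, the SREBP2 control genes 0.35 and the transport and storage genes -0.09.

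Pmvk, which adds the second phosphate to mevalonate (chr3:89454541-89469013), gave 434, 554 and 562 in controls and 1498, 1549 and 1819 in exposed females. Every exposed library lay far above every control. It rose by 1.65 ± 0.18 on the log2 scale (limma adjusted p = 0.0293). Leaving out any library other than exposed replicate 3 ended the call, with the fold change between 1.53 and 1.72 and adjusted p between 0.025 and 0.224, and voom on the recovered reads gave an adjusted p of 0.0518. The authors' deposited table lists an adjusted p of 2.16e-09 for it. That table has 2 members under 0.05 at PND21, and the other is Fdft1, at 0.0071. Over all genes it has 446 of 14235 under 0.05 at that age.

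Further down the route, Idi1 gave 18.0, 27.9 and 42.3 in controls and 61.1, 73.9 and 132 in exposed females. The groups did not overlap, at low counts (1.57 ± 0.44, limma adjusted p = 0.4). Fdft1, squalene synthase (chr14:63145150-63179578), gave 1635, 1924 and 2338 in controls and 3178, 3650.1 and 4737 in exposed females. All exposed values were above all controls (0.97 ± 0.22, adjusted p = 0.345). Cathepsin B (Ctsb) lies over part of Fdft1 on the opposite strand and had a log2 fold change of -0.01 ± 0.35. Cyp51, which demethylates lanosterol (chr5:4081145-4104746), gave 1381, 1593 and 2116 in controls and 2580.1, 2832 and 4155 in exposed females, without overlap (0.90 ± 0.25, adjusted p = 0.398). Msmo1, the methylsterol oxidase that acts after it (chr8:64718139-64733792), gave 2064, 2219 and 2467 in controls and 3849.7, 3973 and 4609 in exposed females. The narrow groups were clearly apart (0.88 ± 0.18, adjusted p = 0.341). Of the 34 members, the highest log2 fold change was 1.69 for Fdps and the lowest -0.37 for Abca1. Hsd17b7 and Ebp, which led at PND1, were at -0.04 ± 0.19 and -0.01 ± 0.26.

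The control genes were less clear. Srebf2 gave 1334, 1452 and 1818 in controls and 1642, 1808 and 2153 in exposed females, where the lowest exposed library lay under the highest control (0.29 ± 0.20, limma adjusted p = 0.622). Insig1 gave 2884, 4856 and 7468 in controls and 3523, 5832 and 8517 in exposed females and overlapped widely (0.25 ± 0.41, adjusted p = 0.851). Its sign turned when exposed replicate 1 or control replicate 1 was left out (-0.06 and -0.11). For Insig2 the libraries gave 3393, 5530.3 and 5668 in controls and 3599, 7861 and 8933 in exposed females, with 1 exposed library at the level of the controls (0.42 ± 0.37, adjusted p = 0.7). Abca1 was the member that separated downward, at 3914, 4203 and 4798 in controls and 3062, 3394 and 3536 in exposed females, with a difference of -0.37 ± 0.18 (adjusted p = 0.538). Its sterol-responsive regulator Nr1h3 separated upward (2045, 2431 and 2572 against 2637, 2829 and 3233), at 0.31 ± 0.19 (adjusted p = 0.595).

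Markers of cell types also differed in mean between these groups. Hepatocyte markers had a lower mean in 5 of 5 (median log2 fold change -0.59; sums of 2133 to 4529 kilocounts in controls and 1494 to 2392 kilocounts in exposed females). Stellate and matrix genes had a higher mean in 5 of 7, all 5 without overlap (sums of 13.8 to 18.8 and 17.9 to 37.4 kilocounts). B cell markers had a higher mean in 5 of 5, 2 without overlap (median 0.76; 0.228 to 0.450 and 0.356 to 0.723 kilocounts). Cholangiocyte markers had a higher mean in 5 of 6, 1 without overlap (median 0.78; 1.24 to 2.12 and 1.08 to 3.94 kilocounts). None of these markers passed limma. Their part in the enzyme values was not tested. With library totals set equal in place of the deposited scaling, the median of all genes moved to 0.23 and that of the members to 0.54. Rescaling a library moves all its genes by nearly the same amount, so the gap of 0.31 between these medians could hardly change.

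At PND42 exposed females had lower levels along most of the route, and higher levels of Abcg5 and Soat2, which export and esterify sterol. limma called 14 of the 34 members lower and 3 higher, where it called 21.4% and 18.9% of all 13091 genes. The median log2 fold change of the members was -0.64 against 0.00 over all genes. Of the 11 enzymes from squalene on, 8 fell and 0 rose, and all 11 had a lower mean (median -1.09). Of the 8 earlier enzymes, 2 fell (Idi1 and Acat2) and 1 rose (Ggps1). Complete separation of the groups was seen downward for 11 members and upward for 2, against 23.5% and 22.3% of all genes.

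Idi1 had the largest difference. Its libraries gave 242, 255, 468 and 526 in controls and 22.4, 24.5, 32.7 and 132 in exposed females. Every exposed library lay below every control, and Idi1 fell by 3.12 ± 0.48 on the log2 scale (limma adjusted p = 0.000126). Sqle, the squalene epoxidase that limits the later route (chr15:59315077-59331192), gave 3375, 3865, 3974 and 4188 in controls and 364, 572, 652 and 1862 in exposed females. No exposed library reached the controls, although 1 lay nearer to them, and the log2 fold change was -2.43 ± 0.51 (adjusted p = 0.0019). Cyp51 gave 4046, 4085, 4317 and 6910.1 in controls and 955, 1207, 1503 and 3325 in exposed females. Even its highest exposed library was below the controls (-1.60 ± 0.34, adjusted p = 0.00165). Hsd17b7 gave 2030.4, 2409, 2469.8 and 2533 in controls and 836, 880.3, 929 and 1353 in exposed females, again without overlap (-1.26 ± 0.18, adjusted p = 7.38e-05). With any 1 library of the fit left out, the Hsd17b7 value stayed between -1.42 and -1.18.

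The other enzymes past the test fell by smaller amounts. Ebp gave 5375, 6475, 7315 and 7739 in controls and 2521, 3013, 3074 and 4036 in exposed females, without overlap (-1.10 ± 0.25, limma adjusted p = 0.00246). Tm7sf2, a sterol reductase of the endoplasmic reticulum (chr19:6062821-6068373), gave 3519, 3948, 4416 and 4594 in controls and 1332, 1549.8, 1679 and 3358 in exposed females. It too separated the groups (-1.15 ± 0.31, adjusted p = 0.00785). Msmo1 gave 4049, 6129, 6789 and 7993 in controls and 1589, 2389, 3129.9 and 5552 in exposed females, where 1 exposed female lay among the controls (-1.09 ± 0.33, adjusted p = 0.0152). The same pattern held for Fdft1, at 3079, 3264, 4960.4 and 6082 in controls and 1275, 2105, 2276 and 4009.7 in exposed females (-0.91 ± 0.33, adjusted p = 0.0342). Ctsb, which overlaps it, fell as well (-1.24 ± 0.27). Acat2, the thiolase of the opening step (chr17:12942890-12960747), gave 1498, 1677, 2335 and 2504 in controls and 1025, 1038, 1081 and 1895 in exposed females, with 1 exposed library inside the control range (-0.69 ± 0.23, adjusted p = 0.0222). Nsdhl, a sterol dehydrogenase, had 2556 ± 779.7 in controls and 1373 ± 863 in exposed females (SD, n = 4 each; -1.03 ± 0.32).

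Several enzymes did not pass. Pmvk, called at PND21, gave 828, 899, 1099 and 1542 in controls and 466, 614, 906 and 1362 in exposed females, and its ranges overlapped (-0.46 ± 0.30, limma adjusted p = 0.233). Mvk, mevalonate kinase (chr5:114444269-114460591), gave 367, 400.4, 716 and 872 in controls and 219, 299, 360.02 and 514 in exposed females (-0.73 ± 0.30, adjusted p = 0.0594). For Mvk 3 exposed libraries lay below every control, and the highest exposed library lay among the controls. Hmgcs1, which makes HMG-CoA from acetoacetyl-CoA and acetyl-CoA, was the most scattered, at 4347, 7448, 21996 and 32989.9 in controls and 11800.5, 13583, 14856 and 31641 in exposed females. Its log2 fold change was 0.42 ± 0.72 and its controls spanned the whole exposed range. Ggps1, which leads to protein prenylation rather than to sterol (chr13:14050659-14063488), was the enzyme that rose: 171, 209, 232 and 288 in controls and 311, 355, 359 and 399.98 in exposed females, without overlap (0.68 ± 0.23, adjusted p = 0.0263).

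Of the SREBP2 control genes Insig2 fell. Its values were 3176, 3829.7, 4635 and 5576 in controls and 1057, 1509.6, 2142 and 2203 in exposed females, every exposed library being below every control (-1.35 ± 0.24, limma adjusted p = 0.000429). Insig1 gave 6607, 7612, 9708 and 10492 in controls and 3839.7, 3917, 7293 and 8317 in exposed females and overlapped (-0.62 ± 0.32, adjusted p = 0.13). For Srebf2 the libraries gave 1246, 1705, 1792 and 1836 in controls and 911, 1279.9, 1362 and 1622 in exposed females, with 3 of the exposed values inside the control range (-0.36 ± 0.19, adjusted p = 0.143). Scap had a mean of 2467 ± 595 in controls and 3140.5 ± 567 in exposed females (SD, n = 4 each), at 0.36 ± 0.18. In the fit with the replicate number as a block, on numbered females only, Insig1 was at -0.94 with an adjusted p of 0.0472, and 2 members were higher and 17 lower. The share of all genes called in that fit is not given here, so the count is not read as a change particular to the members.

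The transport and storage genes divided. Npc2, the lysosomal protein that hands cholesterol to Npc1 (chr12:84754562-84773152), had the lowest p of all members, at 1646, 1781, 1784 and 2243 in controls and 321, 446, 511 and 596 in exposed females. No exposed library came near the controls, and Npc2 fell by 2.02 ± 0.26 on the log2 scale (limma adjusted p = 3.23e-05). Its partner Npc1 had -0.11 ± 0.24 (adjusted p = 0.742). Stard4 gave 3795, 3944, 5089 and 5405 in controls and 1432, 1763, 1806 and 2546 in exposed females, without overlap (-1.29 ± 0.21, adjusted p = 0.000218). Lcat, the secreted enzyme that esterifies cholesterol in plasma (chr8:105939551-105943382), gave 9715, 10004, 11838 and 12129 in controls and 6054, 6133, 6152 and 6457 in exposed females. Its exposed libraries were tightly grouped below the controls (-0.81 ± 0.20, adjusted p = 0.00369).

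Abcg5 (chr17:84658234-84683011), which with Abcg8 secretes sterol into bile, rose, at 1747, 3269, 3958 and 4153 in controls and 7762, 8055, 8445 and 15273 in exposed females. Each exposed library was above each control (1.61 ± 0.36, limma adjusted p = 0.0022). Abcg8, which is annotated on the opposite strand and overlaps Abcg5 in part (chr17:84676302-84700333), gave 874, 1572, 1972 and 2400.03 in controls and 2332, 2387, 2443 and 4116 in exposed females, with overlap of the highest control (0.78 ± 0.36, adjusted p = 0.0924). Soat2, which esterifies cholesterol inside hepatocytes (chr15:102150526-102163469), rose as well, at 847, 859, 1444 and 2905 in controls and 2619, 3125, 3290.4 and 4401 in exposed females. Its highest control lay inside the exposed range (1.32 ± 0.38, adjusted p = 0.0109). Abca1 gave 3602, 3793, 4567 and 4737 in controls and 3351, 4334, 4379 and 4825 in exposed females, with no difference beyond the spread (0.01 ± 0.17, adjusted p = 0.956). Nr1h3, the receptor for sterol excess, was at -0.14 ± 0.17 (adjusted p = 0.557). The remaining 7 members lay between -0.78 for Fdps, the farnesyl diphosphate synthase, and -0.08 for Sc5d. Nearest to passing were Scarb1, the receptor that takes up HDL cholesterol (-0.66 ± 0.27, adjusted p = 0.0572), and Mylip (-0.45 ± 0.19, adjusted p = 0.0687).

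As at PND1, a single exposed animal lay above its group. The mean over the 19 enzymes was 9.50, 9.85, 9.94 and 10.94 in exposed females and 10.70, 10.71, 11.04 and 11.27 in controls. The exposed female at 10.94, replicate 4, was highest of its group in 18 of the 19 enzymes, again with Ggps1 as the exception. Without it 16 members were lower and 3 higher, and the median was -0.78. Exposed replicate 3, at 9.50, was the lowest in 12 of the 19, and without it 10 were lower and 2 higher. Over all single libraries of the fit left out, between 12 and 19 members were called. The shares of all genes called in these fits are not given here.

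Other measures also differed between these groups, some of them strongly. Mitochondrially encoded RNA made up 5.25% to 12.8% of normalised counts in control and 22.2% to 35.5% in exposed females. The nuclear RNAs Malat1 and Neat1 rose (1.55 ± 0.30 and 2.13 ± 0.51, limma). Hepatocyte markers fell in 4 of 5, from sums of 2709 to 3851 kilocounts to 1139 to 2171 kilocounts. Kupffer cell markers fell in 3 of 5 (sums of 5.19 to 8.63 and 3.50 to 6.21 kilocounts), cholangiocyte markers in 2 of 5 (1.04 to 2.09 and 0.358 to 0.656 kilocounts) and stellate and matrix genes in 2 of 7 (9.78 to 12.7 and 6.39 to 8.98 kilocounts). Of all genes, limma called 21.4% lower and 18.9% higher in this comparison. Of 5 sinusoidal endothelium markers 1 was called higher and 1 lower. B cell markers had a higher mean in 4 of 5, with 0 called (median log2 fold change 0.54). The part of these measures in the sterol gene values was not tested.

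**Figure D2:**
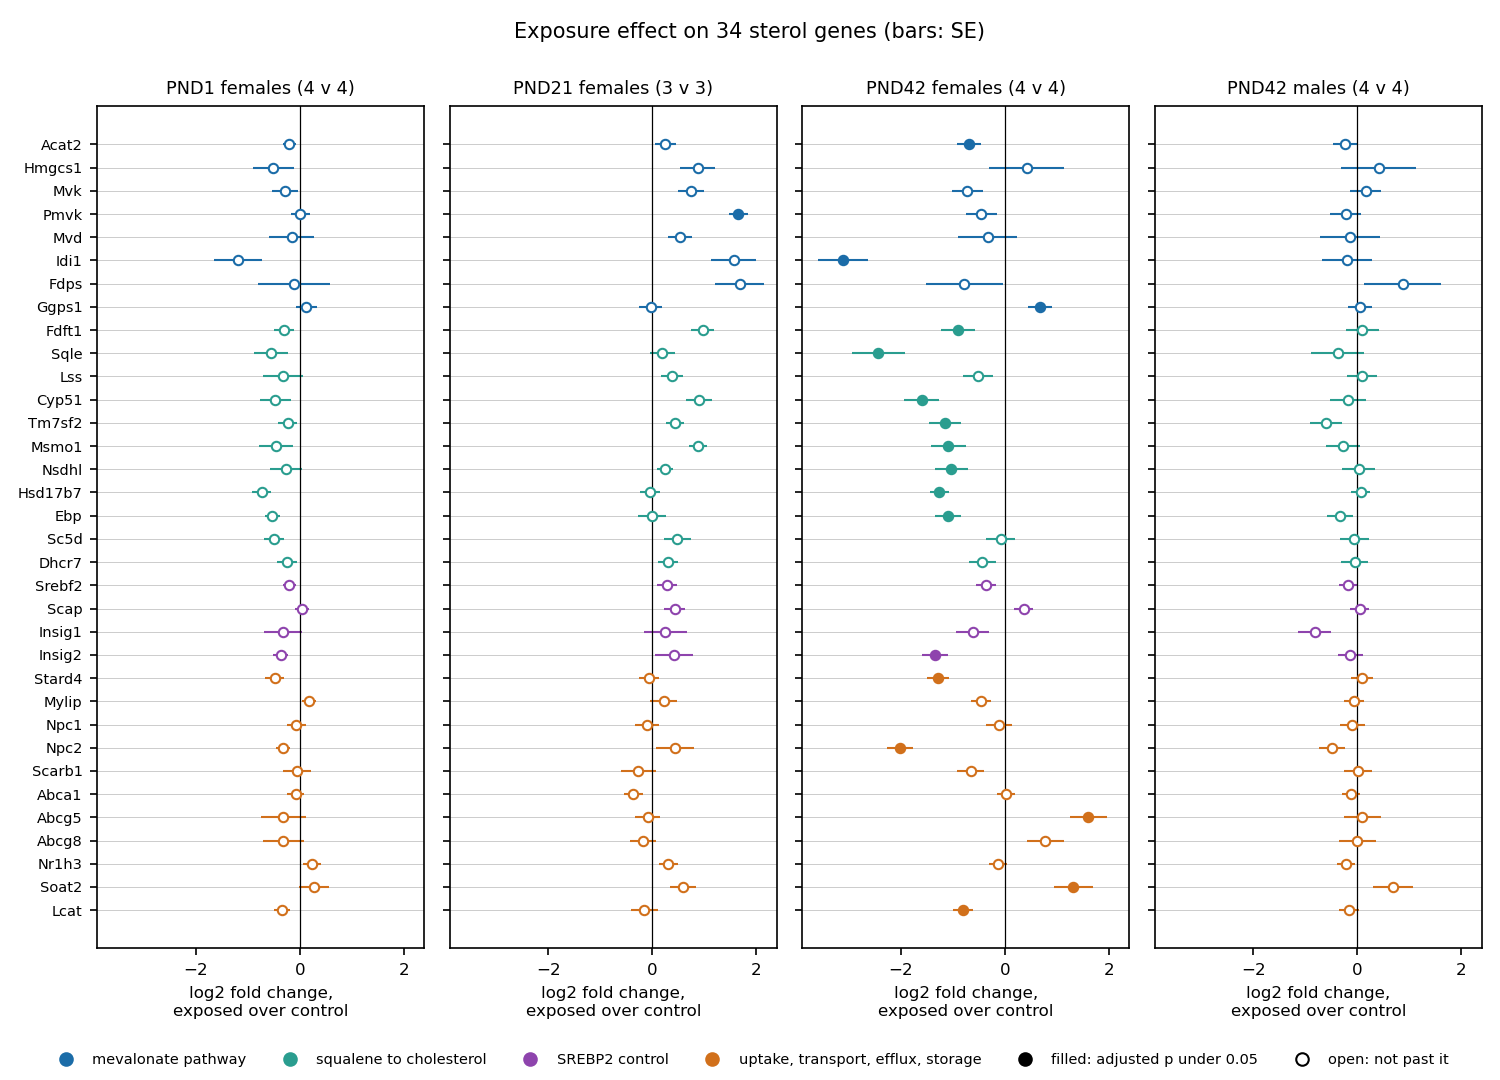
Log2 fold change of exposed over control (x axis; bar, SE) for each of the 34 genes (y axis, by role) in the 4 exposure comparisons, with filled points past an adjusted p of 0.05. Only Pmvk is filled at PND21, 17 genes are filled in PND42 females (14 lower, 3 higher), and none at PND1 or in PND42 males.

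In PND42 males the same comparison gave no call. limma called 0 of the 34 members and 0% of all 13091 genes, voom called 0 members, and at an unadjusted p under 0.05 there were 1 lower and 0 higher (3.39% and 3.73% of all genes). The members' median log2 fold change was -0.08 against -0.03 over all genes, 21 members had a lower mean where 52.9% of all genes did, and 0 members separated the groups (0.833% of all genes downward and 0.894% upward). With library totals set equal the members' median turned to 0.025, while that of all genes moved to 0.08. The mean over the 19 enzymes was 9.95, 10.31, 10.33 and 10.74 in control and 9.78, 10.27, 10.37 and 10.73 in exposed males, nearly the same span. Summed hepatocyte markers were 2385 to 4421 kilocounts in control and 2412 to 3389.8 kilocounts in exposed males, and mitochondrial RNA was 9.03% to 24.8% and 14.5% to 29.7%. B cell markers had a higher mean in 5 of 5, 4 at an unadjusted p under 0.05 and 0 past the test (median log2 fold change 1.79), with sums of 0.177 to 0.379 kilocounts in control and 0.502 to 0.876 kilocounts in exposed males, and their part in the member values was not tested.

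The member of lowest p in males was Insig1, at 5436, 7291, 8557 and 12469 in control and 2559.6, 4939.96, 5415 and 6289.7 in exposed males. The exposed values lay in the lower part of the control range and beneath it (-0.82 ± 0.32, limma adjusted p = 0.622). Tm7sf2 gave 1855, 3733, 3745 and 5699 in control and 1588, 2103, 2795 and 2981 in exposed males, overlapping (-0.60 ± 0.31, adjusted p = 0.622). Npc2, which passed in females, gave 619, 1062, 1100.2 and 1833 in control and 645, 689, 819 and 940.00 in exposed males. Its exposed values all lay within the control range (-0.49 ± 0.26, adjusted p = 0.622). Soat2 gave 853, 866, 1139 and 2165 in control and 1114, 2061, 2119 and 2515 in exposed males (0.69 ± 0.38, adjusted p = 0.622). Ebp gave 3708, 6952, 7856 and 9184 in control and 4133, 4614, 6245 and 6328 in exposed males (-0.33 ± 0.25, adjusted p = 0.656). For both the ranges overlapped. The kinase Pmvk gave 415, 489, 665 and 894 in control and 437, 458, 507 and 645 in exposed males (-0.22 ± 0.30). Srebf2 gave 998, 1038, 1201 and 1295 in control and 781, 946, 1124 and 1208 in exposed males (-0.17 ± 0.19). Insig2 gave 2899.8, 2997, 3186 and 4467 in control and 2631, 2671, 3004 and 4056 in exposed males (-0.13 ± 0.24), and its value was 0.0079 without 1 unnumbered control. The exporter Abca1 gave 3590.3, 3625, 4422 and 4482 in control and 2909.8, 3683, 4063 and 4168 in exposed males (-0.13 ± 0.17). None of these 4 separated the groups.

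The difference between the sexes was tested directly, as the exposure effect in females less that in males. It passed for 5 of the 34 members, all more negative in females, where 4.07% of all 13091 genes were lower and 3.84% higher. They were Hsd17b7 (-1.32 ± 0.26, limma adjusted p = 0.00764), Stard4 (-1.38 ± 0.30, 0.0139), Idi1 (-2.93 ± 0.68, 0.0176), Npc2 (-1.53 ± 0.36, 0.0191) and Insig2 (-1.21 ± 0.34, 0.0395). In males Hsd17b7 gave 1687, 1834, 1936 and 2422 in control and 1604, 1901, 2343 and 2404 in exposed males, Stard4 2261, 3618, 3732 and 4264 in control and 3201, 3357, 3772 and 4139 in exposed males, and Idi1 62.1, 67.5, 82.1 and 90.0 in control and 33.1, 61.4, 69.0 and 127 in exposed males. Exposed and control males overlapped in each of these. The Insig2 difference lost its call without any of 9 libraries (control females 3, 4 and the unnumbered animal, exposed females 2 and 4, control male 1 and 1 unnumbered, exposed males 3 and 4), with an adjusted p of 0.0505 to 0.0871. The members' median difference was -0.50 against -0.01 over all genes, and 4 to 7 members were called with single libraries left out. For Abcg5 the difference of 1.51 ± 0.51 did not pass (adjusted p = 0.0777).

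**Figure D3:**
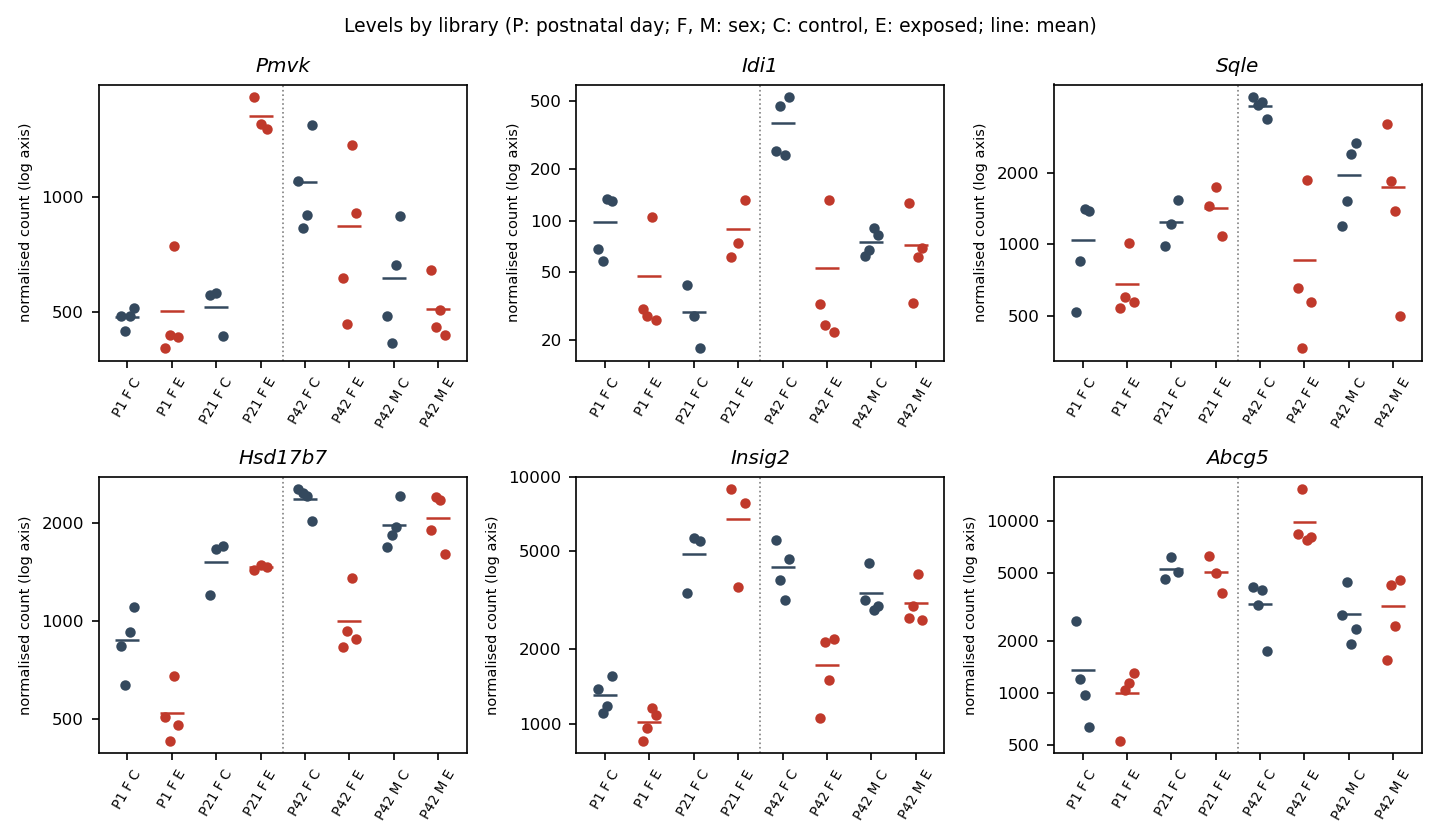
Normalised counts (log axis) of Pmvk, Idi1, Sqle, Hsd17b7, Insig2 and Abcg5 in every library by age, sex and exposure, with group means as lines; PND42 was scaled apart from the earlier ages (dotted line). Pmvk separates at PND21 (434 to 562 in controls, 1498 to 1819 in exposed), and Idi1, Sqle, Hsd17b7 and Insig2 separate downward and Abcg5 upward in PND42 females, and none of these 6 separates in PND42 males.

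The sign of the mean exposure difference changed between ages in many members. Of the 34 members, 19 had a lower mean at PND1 and a higher one at PND21, and 18 of those 19 were lower again in PND42 females. Among the 19 synthesis enzymes the counts were 15 and 14. The opposite turn from PND1 to PND21 occurred in 1 member, Ggps1. These are signs of means, and the share of all genes with the same patterns was not determined. Each change between ages was tested separately.

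Between PND1 and PND21 no member passed. The change of the exposure effect, PND21 less PND1, was positive for 30 of 34 members, where 49.8% of all 14259 genes were, with a median of 0.56 against 0.00. At an unadjusted p under 0.05, 11 members were positive and 0 negative (5.32% and 3.76% of all genes). limma called 2 genes in all (0.014%), none of them a member, and voom called 0 members. Pmvk came closest (1.64 ± 0.27, adjusted p = 0.0878). It passed without PND1 exposed replicate 3 (1.85, adjusted p = 0.00237) or without PND21 control replicate 2 (adjusted p = 0.0481), with equal library totals (0.0499) and with the erythroid covariate (0.0466), its adjusted p with single libraries left out running from 0.00237 to 0.299. Next were Fdft1 (1.28 ± 0.30, adjusted p = 0.278), Idi1 (2.76 ± 0.69, 0.282), Cyp51 (1.37 ± 0.44, 0.39) and Msmo1 (1.33 ± 0.43, 0.391). At PND1, Fdft1 gave 2182, 2274, 2527 and 2616 in controls and 1365, 1893, 1907 and 2829 in exposed females, and Cyp51 1178, 2278, 2498 and 2564 in controls and 1021, 1246, 1535 and 2398 in exposed females. Msmo1 there gave 911, 1518, 1870.5 and 2003 in controls and 852, 853, 961 and 2104 in exposed females. In each of these the ranges overlapped.

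Between PND21 and PND42 females, in limma, the change passed for 15 members. It was more negative at PND42 for 14 and more positive for 1, Abcg5, where 14.8% and 13.6% of 12795 genes passed, and the median was -0.88 against 0.02. Of the enzymes, 11 of 19 passed, all more negative, and 18 of 19 had a negative change, Ggps1 being the exception. Of those that passed, the largest was Idi1 (-4.69 ± 0.79, adjusted p = 0.000344), followed by Sqle (-2.63 ± 0.58), Cyp51 (-2.51 ± 0.52), Npc2 (-2.46 ± 0.36, adjusted p = 9.41e-05) and Pmvk (-2.11 ± 0.39, adjusted p = 0.000681). Msmo1 changed by -1.97, Fdft1 by -1.87, Insig2 by -1.76, Tm7sf2 by -1.58, Mvk by -1.47, Hsd17b7 by -1.22, Stard4 also by -1.22, Ebp by -1.09 and Acat2 by -0.94. Abcg5 changed by 1.69 ± 0.57 (adjusted p = 0.0319). Its call was lost with equal library totals (0.054), with the replicate number as a block (0.0756, numbered females) and without any of 6 libraries (PND21 exposed 2 and 3 and control 1 and 2, PND42 exposed 3 and control 3; 0.0539 to 0.0913). The call of Mvk was lost without PND21 exposed 3, control 1 or control 3 or PND42 exposed 3 (0.0526 to 0.0713). That of Acat2 was lost without PND21 exposed 3 (0.0734) or control 1 (0.054). The 2 exposure effects rest on different animals and different controls, and age, scaling and the sequencing lane in the column names cannot be told apart.

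For the genes of this change not yet given at PND21, the groups mostly overlapped there. Tm7sf2, a sterol reductase, gave 2411, 2449 and 2451 in controls and 3139, 3172 and 3599 in exposed females, without overlap. Sqle gave 982, 1218 and 1533 in controls and 1087, 1448 and 1739 in exposed females, Mvk 271, 286 and 494 in controls and 470.2, 608 and 632 in exposed females, and Acat2 1654, 1663 and 1937 in controls and 1789, 1928 and 2602 in exposed females. These 3 overlapped. Hsd17b7 gave 1201, 1664 and 1694 in controls and 1432, 1468 and 1481 in exposed females, Ebp 3508, 5248 and 6403 in controls and 4028, 5355 and 5378 in exposed females, and Stard4 1835, 2407 and 2618 in controls and 1981, 2213 and 2299 in exposed females. In these the exposed libraries lay within the control range. Npc2 gave 710.4, 807 and 1154 in controls and 675, 1286 and 1906 in exposed females, and Abcg5 4581, 5061 and 6189 in controls and 3816, 4995 and 6259 in exposed females. Both overlapped, Npc2 with its exposed values the more spread.

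Many members differed between the ages in control females. From PND1 to PND21, 14 members rose and 3 fell in limma, where 27.7% and 28.3% of all 14259 genes did so, and the median was 0.46 against 0.01. Complete separation occurred upward for 15 members and downward for 4 (27.4% and 27.9% of all genes). The late enzymes Ebp, Sc5d, Dhcr7, Nsdhl and Hsd17b7, both Insig genes, and 6 of the 11 transport genes rose, while only 1 of 8 early enzymes, Acat2, did. The early enzyme Mvd separated the ages upward and narrowly missed the threshold (1.00 ± 0.41, limma adjusted p = 0.0503).

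The largest rise was in Abcg5, from 634, 974, 1208 and 2637 at PND1 to 4581, 5061 and 6189 at PND21. Every older control was above every newborn (2.14 ± 0.40, limma adjusted p = 0.000442). Abcg8 went from 446, 460.5, 466 and 1218 to 1519, 2418 and 2443 (1.83 ± 0.38, adjusted p = 0.00099), also without overlap. Insig1 went from 620.3, 1044, 1288 and 1716 to 2884, 4856 and 7468 (2.11 ± 0.42), and Insig2 from 1109, 1182, 1384 and 1559.5 to 3393, 5530.3 and 5668 (1.87 ± 0.27). Both genes separated the ages. Srebf2 stayed near 1426 and 1535 on average (0.10 ± 0.15, adjusted p = 0.576). Ebp rose from 1312, 1751, 1907 and 2143 to 3508, 5248 and 6403 (1.49 ± 0.20), and Sc5d, the desaturase after it, from 1186, 1293, 1805 and 2169.6 to 4078, 4300.5 and 4469.8 (1.45 ± 0.23).

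The members that fell with age were Idi1, Npc2 and Mylip. Idi1 went from 58.4, 68.0, 131 and 134 to 18.0, 27.9 and 42.3 (-1.68 ± 0.49, limma adjusted p = 0.00876). Npc2 went from 2222, 2467, 2943 and 2953 to 710.4, 807 and 1154 (-1.59 ± 0.27), and Mylip, the ubiquitin ligase that sends the LDL receptor for degradation (chr13:45389742-45412022), from 419.8, 488, 553 and 596 to 183, 254 and 302 (-1.08 ± 0.20). All 3 separated the ages. Over the same interval all 12 erythroid markers fell (median -4.77; sums of 236 to 388 kilocounts at PND1 and 27.8 to 86.1 kilocounts at PND21), all 5 B cell markers fell (median -3.65), and 3 of 5 hepatocyte markers rose. With the erythroid mean as a covariate 0 members passed, the members' median was -0.28, and Npc2 (0.12) and Mylip (0.27) turned positive. Erythroid content and age cannot be told apart here. With equal library totals the median of all genes moved to -0.50, 10 members were higher and 7 lower (shares of all genes not given here), and the members' median was -0.051. It stood 0.45 above that of all genes, as against 0.46 under the deposited scaling. Since rescaling moves all genes nearly alike, this gap could hardly change.

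**Figure D4:**
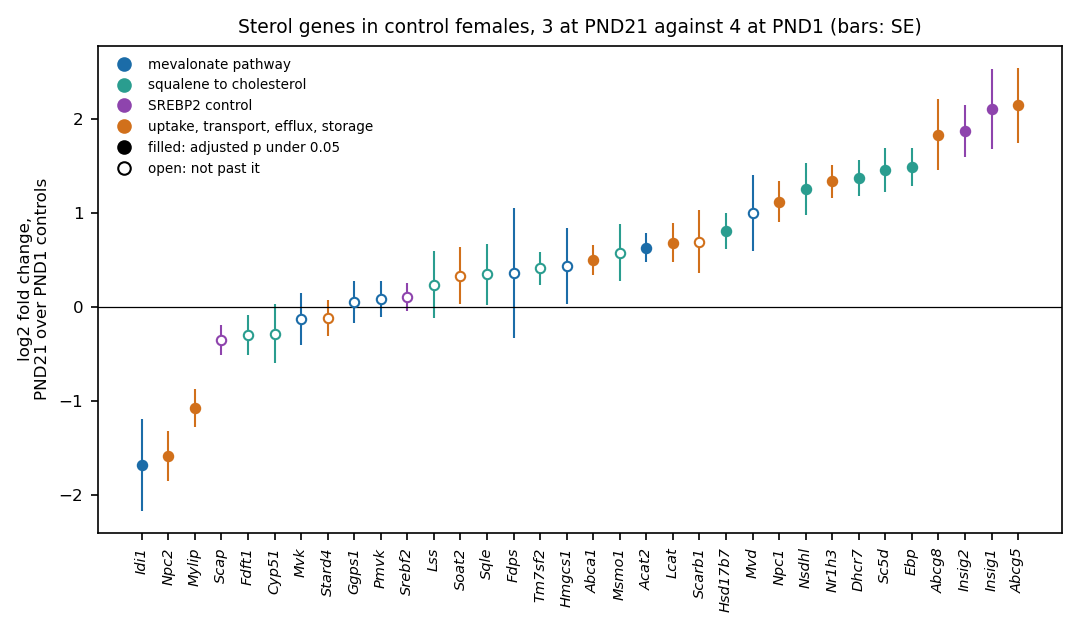
Log2 fold change from PND1 to PND21 in control females (y axis; bar, SE) for the 34 genes in order of size, coloured by role, with filled points past an adjusted p of 0.05. Abcg5 (2.14), Insig1 (2.11) and Insig2 (1.87) lie at the upper end and Idi1 (-1.68), Npc2 (-1.59) and Mylip (-1.08) at the lower end.

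Per kilobase of exon, levels of the members differed widely, and some members changed rank between groups. Lcat was the most abundant in each of the 8 groups, with a mean of 4000.2 normalised counts per kilobase in PND1 controls, and Hmgcs1 was next in each (1975). At the low end in PND1 controls were Fdps (8.96) and Idi1 (27.9), so their fold changes at that age rest on few reads. Part of the exon sequence of some enzymes also occurs in other genes, counted as the share of windows of read length (125 bases) that match exactly. It was largest in 4 enzymes: 23.9% in Acat2 (shared with Acat3 and Tcp1), 20.3% in Idi1, 19.3% in Fdps and 16.4% in Fdft1. Their counts are uncertain, by an amount that these shares neither measure nor bound. The counting rule for shared and opposite-strand reads was not given in the sources at hand. The share was 7.37% in Hmgcs1 (shared with Gm48342) and 7.11% in Tm7sf2, which overlaps Vps51. In PND42 females the exposure difference of Vps51 was -0.16 ± 0.17, and Tcp1 fell (-1.05 ± 0.21). Abcg5 ranked number 3 per kilobase in exposed PND42 females (3644) and number 7 in their controls (1210.00). Npc2 was number 7 of the 34 in PND1 controls (487) and number 28 in PND21 controls (164). At PND42 it was number 25 in control females (343) and number 30 in exposed females (86.1). Insig1 was number 13 in PND1 controls (377) and number 5 in PND21 controls (1639).

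A further 39 genes of the wider pathway, which process SREBP2, move sterol or branch from farnesyl diphosphate, were read in the same way, and 38 were in the tables. At PND1 0 passed limma, with 3 lower and 0 higher at an unadjusted p under 0.05, and the 7.89% that were lower compare with 8.36% of all genes. At PND21 0 passed, with 5 lower and 1 higher (13.2% and 2.63%, against 4.48% and 5.09% of all genes). The gene that was higher at PND21 was Tmem97, a regulator of Npc1 (0.61 ± 0.20, unadjusted p = 0.0142, adjusted p = 0.45). In PND42 females 14 fell (36.8%, against 21.4% of all genes) and 4 rose (10.5%, against 18.9%). Those that fell included Nus1, a subunit of the dolichol-making enzyme (-1.31 ± 0.17), Erg28, a scaffold of the sterol demethylation complex (-1.55 ± 0.26), and Erlin2, which takes part in sterol-driven degradation (-0.82 ± 0.15). In PND42 males 0 passed, with 2 lower and 0 higher at an unadjusted p under 0.05 (5.26% lower, against 3.39% of all genes). The change from PND21 to PND42 passed for 8, 6 of them more negative and 2 more positive (15.8% and 5.26%, against 14.8% and 13.6% of all genes), with Tmem97 at -1.86 ± 0.28 and Erg28 at -1.84 ± 0.35. With age in controls 12 rose and 8 fell (31.6% and 21.1%, against 27.7% and 28.3% of all genes). Soat1, the esterifying enzyme of other tissues, fell (-3.05 ± 0.17), as did Lbr, which shares the reductase step of Tm7sf2 (-2.26 ± 0.22), and the endocytic receptor Lrp1 rose (1.18 ± 0.15).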

How the data were processed

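Liver RNA of 30 mice was sequenced as single-end reads of 125 bases from RNA with an integrity number of at least 7, per the labels' protocols. FastQC, STAR, featureCounts and the mm10 build are named in the submitters' processing notes; their versions and the strand setting of the counting are not given in the sources used here. Each deposited expression value is log2(reads divided by a size factor + 1), and whole reads could be recovered from 100% of these values within 0.1 read. The deposited mean signal per gene (normalised counts over libraries, at least 10.5 at PND1 and PND21 and at least 12.1 at PND42) served only to check the scaling. The authors' deposited log2 fold changes, p-values and adjusted p-values were read only where named.

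From these log2 values, differences were fitted with limma 3.58.1 in R 4.3.3 (with data.table, version 1.17.8; mean-variance trend, robust), with Benjamini-Hochberg adjustment over all genes and a threshold of 0.05. Genes needed at least 10 normalised counts in as many libraries as the smallest group holds. PND42 was fitted with its 4 groups together, age and PND21 against PND1 with 14 libraries, and PND42 against PND21 with 22 female libraries over 12795 genes. The scripts were tested on simulated data. The members and gene lists were chosen with earlier results of these data known. Values in every library were given by a fixed rule for members past the threshold in an exposure or interaction comparison (for PND42 females the 8 of lowest p), for the 5 of lowest p where fewer than 3 passed, for the 6 highest and up to 6 lowest changes with age, and for Pmvk, Srebf2, Insig1, Insig2 and Abca1 at each age. Up to 3 other pathway genes of lowest p were named per comparison. Further members shown at PND42 and Nr1h3 at PND21 were chosen after their values were seen. Alternatives were equal library totals, a pseudocount of 5, no filter, limma voom on recovered reads, a replicate block, the stem of the animal tag as a random block, an erythroid covariate and leaving out each library. Same-numbered libraries correlated at -0.08 to 0.13 (PND1), -0.04 to 0.23 (PND21) and -0.06 to 0.07 (PND42 females), so the numbers were not taken as pairs.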

Additional observations from a re-analysis of the deposited data

Results flagged for a closer look

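Of 204 groups of 4 libraries (34 members, 6 groups), 14 had a library whose gap to the nearest other exceeded 0.829 of the group's range on the log2 scale (Dixon's criterion), which chance gives in about 1 in 20 groups. PND1 exposed replicate 3 gave 5 of these, all high and all synthesis enzymes. It had 745 normalised counts of Pmvk (others 403 to 438), 104 of Idi1 (26.3 to 30.5), 1013 of Sqle (536 to 597), 1883 of Lss, lanosterol synthase (712 to 745), and 2104 of Msmo1 (852 to 961). PND1 control replicate 1 was low in Acat2 (946, others 1168 to 1215) and Cyp51 (1178, others 2278 to 2564) and high in Abcg8 (1218, others 446 to 466).

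At PND42, exposed female replicate 3 was high in both biliary sterol transporters, with 15273 of Abcg5 (others 7762 to 8445) and 4116 of Abcg8 (2332 to 2443). Exposed female replicate 4 was high in Acat2 (1895, others 1025 to 1081). Control female replicate 4 was high in Cyp51 (6910.1, others 4046 to 4317), and the unnumbered control female was low in Lss (1727, others 2341 to 2447). An unnumbered control male was low in Nr1h3 (1843, others 2910.5 to 3058).

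The exposure effect differed between PND21 and PND42 females, by the test of the difference, in 15 members. It was more negative at PND42 in Idi1 (-4.69), Sqle (-2.63), Cyp51 (-2.51), Npc2 (-2.46), Pmvk (-2.11), Msmo1 (-1.97), Fdft1 (-1.87), Insig2 (-1.76), Tm7sf2 (-1.58), Mvk (-1.47), Hsd17b7 (-1.22), Stard4 (-1.22), Ebp (-1.09) and Acat2 (-0.94), and more positive in Abcg5 (1.69). Between the sexes at PND42 it differed in Idi1 (-2.93), Npc2 (-1.53), Stard4 (-1.38), Hsd17b7 (-1.32) and Insig2 (-1.21), each more negative in females.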

How the results depend on the processing

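Of the counts of members called, 43 of 47 alternatives other than leaving out a library equalled the main count or lay within 1.5 times it. The main count was 0 at PND1, in PND42 males and for PND21 against PND1. There a count that stayed at 0 was taken as equal, which says little about stability. The exceptions were 0 at PND21 with voom (1 in the fit as reported), 0 for age with the erythroid covariate (17), and 1 for PND21 against PND1 with equal library totals and also 1 with the erythroid covariate (0). Counts of members in all these alternatives are given without the count of all genes called in the same fit. A change in them can therefore not be told from a change over all genes. With single libraries left out the counts ran from 0 to 1 at PND21, 0 to 1 for PND21 against PND1, 12 to 19 in PND42 females, 16 to 19 for age, 13 to 19 for PND42 against PND21 and 4 to 7 for the sexes, and were 0 at PND1 and in PND42 males. The members' median moved by more than 1 SD of its values with single libraries left out in 25 of 81 such omissions and in 6 of 47 other alternatives, and changed sign in 3 more of these. With single libraries left out it ran from -0.44 to -0.17 at PND1, 0.26 to 0.43 at PND21, -0.78 to -0.48 in PND42 females, -0.15 to -0.034 in PND42 males, 0.37 to 0.61 for age, 0.48 to 0.75 for PND21 against PND1, -1.18 to -0.68 for PND42 against PND21 and -0.65 to -0.36 for the sexes. It changed sign with equal library totals for age (-0.051) and PND42 males (0.025), and with the erythroid covariate for age (-0.28), as did Npc2 (0.12) and Mylip (0.27) with age. Single libraries left out turned the sign of 5 uncalled gene values, which ranged from -0.19 to 0.10 for Pmvk and -0.20 to 0.032 for Abca1 at PND1, -0.11 to 0.58 for Insig1 at PND21, -0.055 to 0.12 for Abca1 in PND42 females and -0.27 to 0.0079 for Insig2 in PND42 males. The cause of these changes was not tested. With the replicate block the counts were 0 at PND1, 1 at PND21, 19 in PND42 females (2 higher, 17 lower), 17 for age, 0 for PND21 against PND1 and 14 for PND42 against PND21 (0 higher, 14 lower); it brought Insig1 past the threshold in PND42 females, ended the call of Abcg5 for PND42 against PND21 (adjusted p 0.0756) and changed no other call of a named gene. With the stem of the animal tag as a random block (estimated correlation 0.32 over PND1 and PND21, 0.14 over the 22 female libraries) the counts were 20 for age, 0 for PND21 against PND1 and 15 for PND42 against PND21. For the sexes that fit could not be made, since numbered PND42 animals share 1 stem. The fit on numbered PND42 females without a block, the block for PND42 against PND21 and the tag stem fits were chosen after seeing the data. No paired analysis was possible for PND42 males or for the sexes because fewer than 2 replicate numbers are common to control and exposed males. Fdps and Idi1 had the lowest mean counts of the members in every group except PND42 control females, which limits their precision. In PND42 control females Idi1 (mean 373) lay above Ggps1 (225) and Mylip (265).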
